A study of Mus musculus with 6 samples.

Results

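The muscle-specific RING finger proteins (MuRFs) and their relatives of the tripartite motif (TRIM) family are ubiquitin ligases of striated muscle, and their transcripts were compared between muscle of 3 mice labelled wild type (WT) and 3 mice labelled SIRT6 knockout (KO). The genes were Trim63 (MuRF1), Trim54 (MuRF3), Trim55 (MuRF2), Trim32 and Trim72 (MG53). Every probe set, a group of short probes against the same transcript, whose annotated symbol was 1 of these 5 names was taken, which gave 4 probe sets for 4 genes among 45037 probe sets tested and 18193 named genes. Trim55 was matched to no probe set and was not analysed here. RNA of each mouse was hybridized to 1 Affymetrix Mouse Genome 430 2.0 array. All mice were of the 129SvJ strain background; WT mice are labelled with no other allele and KO mice with the loss of SIRT6, a NAD-dependent deacylase acting on chromatin. The labels give no age, which muscle was sampled, or how the deletion was made, and replicates are described as biological.

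TRIM ligases carry a RING domain, which recruits a ubiquitin-conjugating enzyme, followed by B-box and coiled-coil domains that bind substrates and other family members. MuRF1 marks sarcomere proteins such as myosin heavy chain for the proteasome, and its transcript is a standard marker of muscle wasting, driven in fasting, disuse and glucocorticoid excess by FoxO factors and the glucocorticoid receptor. MuRF3 binds microtubules and the sarcomere, Trim32 ubiquitinates desmin and is mutated in a limb-girdle muscular dystrophy, and Trim72 seals tears of the muscle cell membrane and ubiquitinates the insulin receptor substrate IRS1.

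The upstream windows of Trim63 and Trim54 are shown because these were the members with the largest changes, and because factors known to act on Trim63 were measured on the same arrays. They are RefSeq sequence of the C57BL/6J reference (GRCm38.p6), not of these mice, and end at the base before the annotated start. Capitals mark AGAACA, the core bound by the glucocorticoid receptor, and GTAAACA, a FoxO site, on either strand (TGTTCT and TGTTTAC on the other).
Trim63, chr4:134314870-134315119, plus strand: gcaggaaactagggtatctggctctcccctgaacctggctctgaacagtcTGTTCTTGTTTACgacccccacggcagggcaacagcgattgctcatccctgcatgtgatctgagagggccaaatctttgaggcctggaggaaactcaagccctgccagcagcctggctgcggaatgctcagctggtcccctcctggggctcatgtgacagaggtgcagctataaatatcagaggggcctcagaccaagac
Trim54, chr5:31116362-31116611, plus strand: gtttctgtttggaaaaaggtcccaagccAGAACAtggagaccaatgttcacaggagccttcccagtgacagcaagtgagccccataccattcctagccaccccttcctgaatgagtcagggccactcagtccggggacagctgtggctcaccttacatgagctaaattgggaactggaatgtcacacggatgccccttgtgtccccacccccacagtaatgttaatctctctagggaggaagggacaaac

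The Trim63 window held 1 match to the core, 200 to 195 bases before the start, and 1 to the FoxO site, 194 to 188 bases before it, with 0 bases between them. It also held 1 match to GAACANNNTGTTC, an inverted repeat of the core that shares 5 bases with the core match. The Trim54 window held 1 core match, 222 to 217 bases before its start, and 0 matches to the FoxO site or the inverted repeat. In the windows of Trim32 and Trim72 there were 0 matches to any of these motifs. Of 32851 windows of this length, 16.1% held the core, 3.17% the FoxO site and 0.0396% the inverted repeat. The E-box CANNTG, which is bound by myogenic factors and reads the same on both strands, matched 3 times in Trim63, 2 in Trim54, 1 in Trim32 and 3 in Trim72, and was present in 66.2% of windows. The motifs were picked from what is known of the Trim63 promoter, and a match is a description of the letters only.

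**Figure D1:**
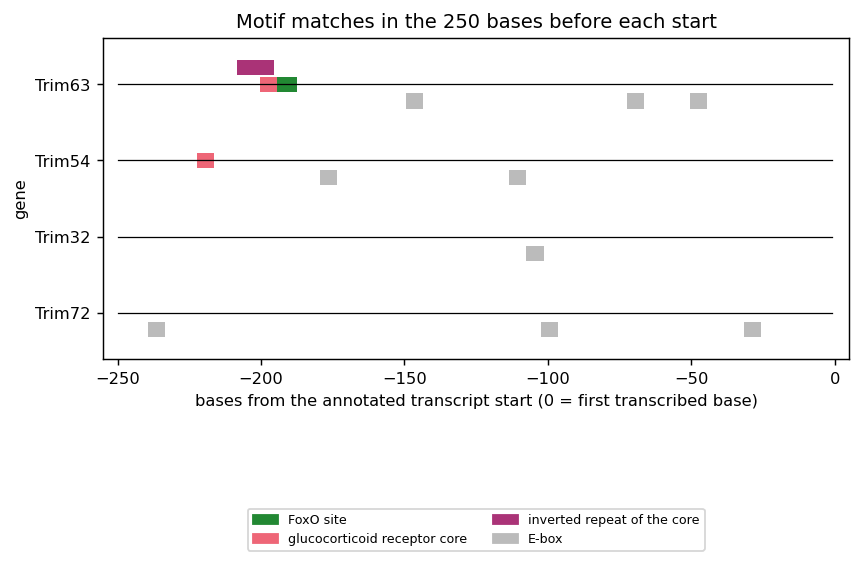
Matches to the FoxO site, the glucocorticoid receptor core, its inverted repeat and the E-box in the 250 bases before the annotated start of 4 genes; the x axis is the distance from the start in bases, and each block spans 1 match. In Trim63 the core overlaps the inverted repeat and adjoins the FoxO site, all between 208 and 188 bases before the start, while Trim54 has 1 core match.

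Trim63 was the member with the largest difference between the groups. Its probe set 1438704_at read 468.2, 408 and 285.7 in the WT-labelled arrays and 512.1, 1825.4 and 6884.7 in the KO-labelled arrays (deposited linear intensities, replicates 1, 2 and 3). All 3 KO-labelled arrays lay above all 3 WT-labelled arrays, but KO replicate 1 lay close to the highest WT value, and the spread within the KO-labelled group was far wider than within WT. Relative to the WT mean, the 3 KO-labelled arrays stood at 1.32, 4.71 and 17.8 times. The highest WT array was 1.64 times the lowest, and the highest KO array 13.4 times the lowest. On the log2(value + 16) scale, which understates changes of dim probe sets, Trim63 was 4.77-fold higher, with a 95% interval of 1.19 to 19.2 (log2 change 2.25, SE 0.84, n = 3 each). It did not pass limma's test over all probe sets (unadjusted p = 0.0329, Benjamini-Hochberg adjusted p = 0.564). The SE, interval and p-values are those of limma, which borrows variance from all probe sets. That fit takes the variance as equal in both groups, although the KO spread was far wider, so the interval's distance from 1 rests on this model.

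The size of the Trim63 difference rested on which KO-labelled mice were counted. Without KO replicate 3 the log2 change was 1.32 (adjusted p = 0.851), and without KO replicate 1 it was 3.17 (adjusted p = 0.166). Among the 10345 genes whose brightest probe set had a mean of at least 16, Trim63 ranked 8 from the top by mean log2 change. By distance from the WT mean in single arrays it ranked 307 in KO replicate 1, 25 in KO replicate 2 and 4 in KO replicate 3.

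Trim54 was higher in the KO-labelled mean, through KO replicate 3. Its probe set 1419440_at read 451.6, 422.9 and 305.6 in WT and 384.1, 540.2 and 1855.6 in KO. KO replicate 1 lay inside the WT range, replicate 2 was 1.37 times the WT mean and replicate 3 was 4.72 times that mean, so the groups overlapped. The fitted fold was 1.85 with an interval of 0.751 to 4.55 (log2 change 0.89, SE 0.55; limma adjusted p = 0.697). Without KO replicate 3 the log2 change was 0.22 (adjusted p = 0.948). Trim54 ranked 233 of the 10345 genes by mean change, and 82 in KO replicate 3.

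Trim32 varied more among WT than among KO arrays. Its probe set 1427476_a_at read 46.8, 50.2 and 24.3 in WT and 42.7, 51.6 and 49.5 in KO. The KO values lay within a 1.21-fold range and the WT values within a 2.07-fold range, with WT replicate 3 the lowest array. The fitted fold was 1.16 with an interval of 0.818 to 1.64 (limma adjusted p = 0.834). Without WT replicate 3 the log2 change turned to -0.015 (adjusted p = 0.995).

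The Trim72 probe set gave no usable level. Probe set 1446300_at read 3.3, 3.4 and 2 in WT and 2.6, 2.3 and 2.2 in KO, all far below the offset of 16. Its fitted log2 change of -0.041 (limma adjusted p = 0.959) turned to 0.002 (adjusted p = 0.998) when arrays were scaled to their hybridization controls. These values do not measure whether Trim72 transcript differed between the groups.

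**Figure D2:**
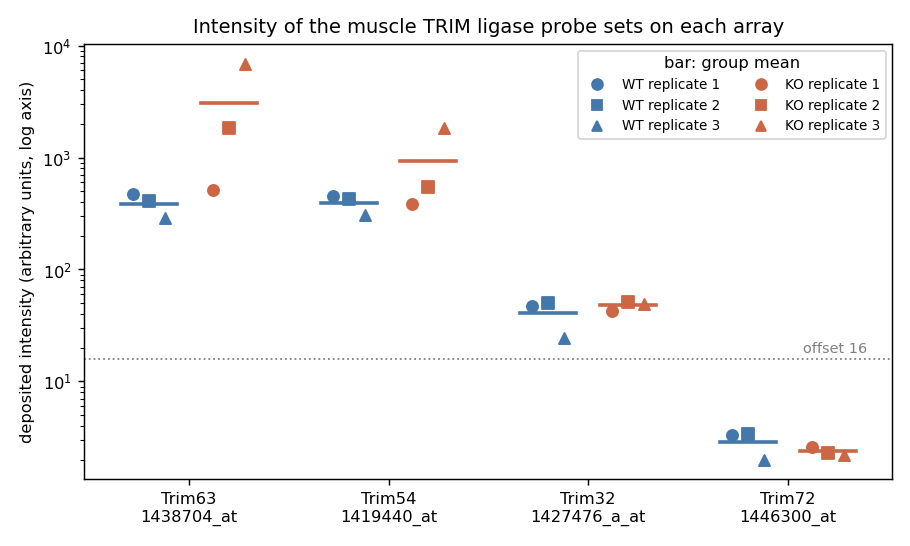
Deposited intensity (log axis) of each TRIM ligase probe set on each of the 6 arrays, with WT in blue, KO in orange, marker shape for the replicate number, bars for group means and a dotted line at the offset of 16. Trim63 reaches 1825.4 and 6884.7 in KO replicates 2 and 3 and Trim54 reaches 1855.6 in KO replicate 3, while Trim32 overlaps between groups and Trim72 stays at or below 3.4.

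Of the 4 probe sets, 0 passed limma's test at an adjusted p of 0.05, where 0.00888% of all probe sets did, and 1 (Trim63) had an unadjusted p under 0.05, where 8.56% did. All KO-labelled arrays lay above all WT-labelled arrays for 1 of the 4, against 5.02% of all probe sets. Refitted on probe sets above the median level, of which 0.351% passed, limma called 0 of the 3 members kept there (adjusted p = 0.121 for Trim63).

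Trim63 and Trim54 were compared with each other within arrays. The log2 difference between them was 0.05, -0.05 and -0.092 in WT and 0.40, 1.73 and 1.88 in KO, so the groups did not overlap. The group difference was larger for Trim63 than for Trim54 by 1.37 log2 units (exact two-sided permutation test over 20 assignments, p = 0.10, also 0.10 after adjustment over 3 pairs, the smallest value that 3 against 3 can give). The corresponding difference from Trim32 was 2.04 log2 units, with the same exact permutation p of 0.10. The third pair, with Trim72, was run and counted in the adjustment (2.29 log2 units, exact permutation p = 0.10). It is not read as a comparison, since that probe set lay below the offset. The difference from Trim32 was 1.125 without KO replicate 3 and 2.90 without KO replicate 1. KO replicate 2 lay 2.22 log2 units above the WT mean for Trim63 and 0.46 for Trim54, and KO replicate 3 lay 4.12 and 2.21 above it.

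The genes whose profile over the 6 arrays was most like that of Trim63 were Retreg1, 2410006H16Rik, Sesn1, Zfas1 and Bnip3. Likeness was the root mean square difference between distances from the WT mean in log2(value + 16), and it was 0.245 to 0.364 for these genes among 10342 ranked. Retreg1, a receptor for autophagy of the endoplasmic reticulum, read 547.8, 482.6 and 273.9 in WT and 716.7, 2217.5 and 5665.6 in KO. Bnip3, a mitophagy receptor, read 549.8, 459 and 383.5 in WT and 494.8, 2276.4 and 4694.5 in KO. Sesn1, a stress-induced inhibitor of mTORC1 signalling, read 160.7, 112.9 and 83.7 in WT and 151.7, 607.6 and 1438.6 in KO. The remaining pair, 2410006H16Rik and Zfas1, are non-coding transcripts at lower levels, with KO means of 251.3 and 215. Leaving out KO replicate 3 kept 1 of these 5 (Sesn1) among the 5 most like, and leaving out any other array kept 4. For Trim54 the nearest were Mocs1, Mrpl41 and Gnl3 (differences of 0.088 to 0.121), of which 0 stayed among the nearest 3 without KO replicate 3.

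Transcripts of the regulators known to act on Trim63 were not parted by group as a list. The median distance of the list from the WT mean was 0.22, 0.18 and -0.33 log2 units in the WT-labelled arrays and 0.03, 0.23 and 0.37 in the KO-labelled arrays. Of 29 listed genes 27 were measured. Of these, 20 had a KO mean above the WT mean (median fold 1.12), as did 46.8% of all genes (median fold 0.988). None passed limma's test at an adjusted p of 0.05, where 0.0055% of genes did. At an unadjusted p under 0.05 there were 5 higher and 2 lower, against 3.54% and 6.29% of all genes. Without WT replicate 3 there were 14 higher and 13 lower. Foxo1, a FoxO factor active in fasting, read 76, 71.2 and 62.5 in WT and 101, 163 and 248.9 in KO, without overlap (2.07-fold, adjusted p = 0.524). Foxo3, its relative, read 86.1, 37.8 and 31.4 in WT and 72.1, 182.4 and 501.1 in KO (adjusted p = 0.564). Klf15, induced by glucocorticoids, read 105.2, 84.1 and 41.1 against 104.8, 253.9 and 508.3, and so overlapped like Foxo3. Foxo4 had means of 242.6 ± 41.6 and 369.8 ± 101.8 (SD, n = 3 each), without overlap. Nr3c1, the glucocorticoid receptor gene, read 391.2, 336.8 and 266.8 in WT and 314.3, 333.7 and 337.4 in KO (1.002-fold, limma adjusted p = 0.999). Smad3 was lower on average, at 218.8, 228.3 and 127.7 in WT and 171.4, 68.7 and 41.7 in KO, with overlap (0.481-fold, limma adjusted p = 0.583).

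Means of a pair of myocyte enhancer factors in this list lay on opposite sides. Mef2c, a transcription factor of muscle genes, read 952.1, 702.9 and 637.7 in WT and 540.3, 325.7 and 99.9 in KO, below all WT arrays and lowest in KO replicate 3 (adjusted p = 0.564). Mef2d, its paralogue, read 222.7, 251.7 and 191.5 in WT and 243.7, 390.8 and 478.1 in KO, with overlap in KO replicate 1 (adjusted p = 0.564).

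Other ubiquitin ligase genes of muscle were higher on average for 14 of 17 measured of 19 listed, with a median fold of 1.38. Of all genes 46.8% were higher, with a median fold of 0.988. The count of 14 did not rest on a single array (12 to 15 higher with each left out), although the median fold was 1.18 without KO replicate 3. None passed limma's test (4 higher and 0 lower at an unadjusted p under 0.05, against 3.54% and 6.29% of all genes). In 4 all KO-labelled arrays lay above WT, against 4.51% of all genes. Fbxo32 (atrogin-1), the F-box ligase subunit that usually accompanies Trim63 in wasting muscle, read 135.7, 75.9 and 55.5 in WT and 143.7, 1296.6 and 4078.5 in KO (adjusted p = 0.556). Its distances from the WT mean in log2 units were 0.68, 3.72 and 5.36 in the KO arrays, beside 0.42, 2.22 and 4.12 for Trim63. Cblb, which ubiquitinates IRS1 in unloaded muscle, had means of 25.5 ± 3.91 and 81.5 ± 45.2. Ubr4, an N-degron ligase, had means of 150.3 ± 58.1 and 352 ± 177.4. Fbxo31, another F-box subunit, overlapped between the groups at 227.6 ± 44.2 and 681.2 ± 499.7. These genes were again highest in KO replicate 3.

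**Figure D3:**
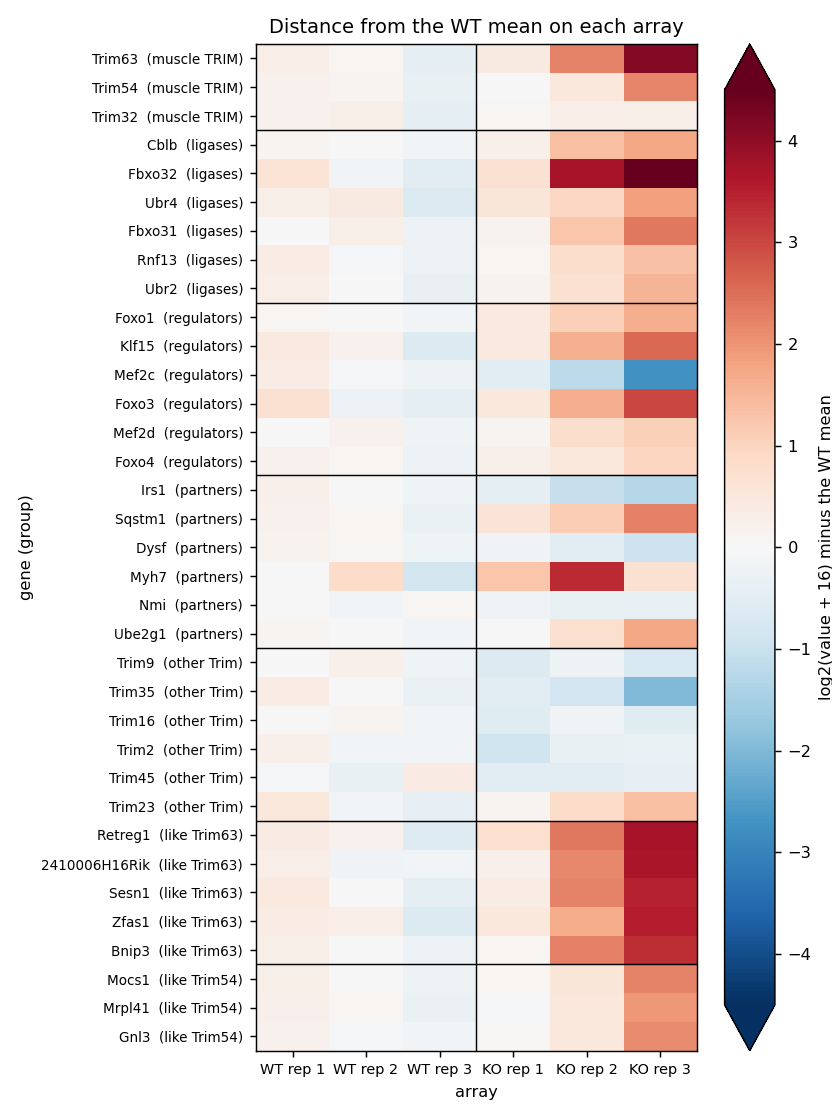
Log2(value + 16) minus the WT mean for each gene (rows, by group) on each of the 6 arrays (columns); red is above and blue below the WT mean. Trim63, Fbxo32, Foxo3 and the genes most like Trim63 are, among the KO arrays, closest to the WT mean in KO replicate 1 and highest in KO replicate 3, while Mef2c, Irs1 and Trim35 are lowest there.

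Partner and substrate genes of the TRIM ligases were close to evenly split. Of 40 listed 35 were measured, 16 higher and 19 lower on average (median fold 0.906), and none passed limma's test (2 higher and 2 lower at an unadjusted p under 0.05, against 3.54% and 6.29% of all genes). This balance moved with WT replicate 1, without which 26 of 35 were higher, and with the scaling: 19 were higher after quantile normalization and 30 when arrays were scaled to hybridization controls. Ttn, the giant titin to which MuRFs bind, read 12719.9, 8389.7 and 8033.3 in WT and 8526.8, 8447 and 8071.1 in KO. Ckm, the muscle creatine kinase, read 16058.6, 9322.6 and 9280.3 in WT and 9226.7, 9406.2 and 10352.1 in KO. WT replicate 1 stood apart in both, and such levels lie near the brightest signals of the arrays, where changes may be understated. Myh7, the slow myosin heavy chain, was highest in KO replicate 2 (1859.9) and not in replicate 3 (281.1), unlike Trim63. Myl2 (871 and 254.3), Myl3 (825.5 and 217.3) and Myh2 (5080.4 and 1590.1) of the same list did likewise. Sqstm1 and Ube2g1, given below, were highest in KO replicate 3.

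Among partners in ubiquitin transfer and autophagy, Sqstm1 and Ube2g1 had the lowest p-values. Sqstm1 (p62), the autophagy receptor that sits with MuRF2 at the titin kinase, read 898.7, 832.5 and 621.4 in WT and 1174.8, 1724.9 and 3794.9 in KO, without overlap (2.52-fold, adjusted p = 0.535). Ube2g1, a ubiquitin-conjugating enzyme, read 445.4, 409 and 372.2 in WT and 414.7, 687.4 and 1410.1 in KO, with overlap in KO replicate 1. The other conjugating enzymes measured in the list overlapped and split in direction. Ube2j1 was 1.16-fold, Ube2d2a 0.848-fold and Ube2e1 0.788-fold. Nbr1, another autophagy receptor, was 1.49-fold with overlap.

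Genes tied to Trim72 and Trim32 were measured although Trim72 itself was not. Irs1, a target of Trim72, read 560.6, 470.7 and 420 in WT and 355.9, 225.7 and 188.4 in KO, below every WT array (0.532-fold, adjusted p = 0.524). Dysf (dysferlin), a membrane repair protein, read 158.4, 147.6 and 121.2 in WT and 125, 96.9 and 67.3 in KO (adjusted p = 0.581). Cav3, the muscle caveolin that binds Trim72, read 200.2, 179.9 and 170.2 in WT and 162.6, 194.5 and 50.5 in KO, so that KO replicate 3 alone stood apart. Des (desmin), a target of Trim32, read 2413.5, 2419.7 and 1928.7 in WT and 2428.9, 2866.9 and 2606.2 in KO, which parted the groups by a narrow margin (1.17-fold, adjusted p = 0.707).

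Of 54 other Trim genes 21 were higher and 33 lower on average (median fold 0.958), where 46.8% of all genes were higher. Only 28 of them had a mean of at least 16, and of these 12 were higher and 16 lower (median fold 0.953). None of the 54 passed limma's test (0 higher and 4 lower at an unadjusted p under 0.05, against 3.54% and 6.29% of all genes). In 5 all KO-labelled arrays lay below WT and in 1 above, against 8.34% and 4.51% of all genes. Scaling to hybridization controls, which moved the median of all probe sets to 0.103 log2 units, turned the balance to 32 higher and 22 lower, and without WT replicate 1 it was 27 and 27. Trim35, a cytosolic TRIM ligase and the bright member of the 5 lower genes, read 1066.1, 834.3 and 686.7 in WT and 609.7, 456.6 and 204.7 in KO (adjusted p = 0.562). Trim16 and Trim2 were dimmer, with WT means of 74.9 and 33.2 and KO means of 52.2 and 18.9. Trim9 and Trim45 had means below 16 in both groups. Trim23, which overlapped between the groups, had the largest higher change (means of 33.3 ± 15.9 and 70.7 ± 35.1, adjusted p = 0.603). The direction given was that of 2 of 3 probe sets for Trim23, 2 of 4 for Trim9 and 3 of 6 for Ttn.

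**Figure D4:**
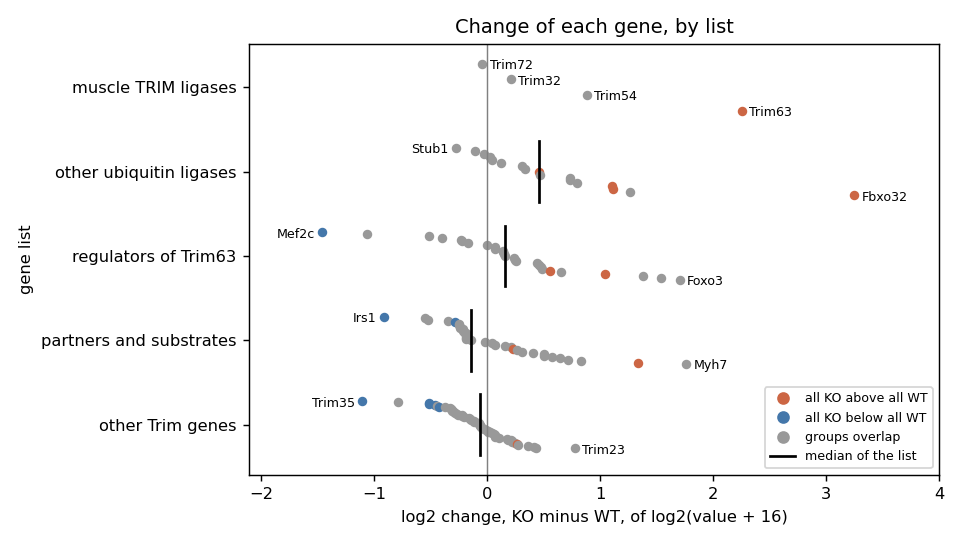
Log2 change (KO minus WT) of each gene, by list, with 1 point per gene, orange or blue where the groups do not overlap, and black lines at list medians. Trim63 (2.25) and Fbxo32 (3.25) lie far to the right, whereas the other Trim genes centre near 0 and reach from -1.10 (Trim35) to 0.78 (Trim23).

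Several facts of the arrays stand beside these results. Sirt6 read 23.2, 15.1 and 21.3 in WT and 22.6, 18.3 and 13.7 in KO, so its probe set does not check the labels, and whether it lies in the deleted part is not known here. Xist averaged 28.5 in WT and 1007 in KO and Y-linked Eif2s3y 58.5 and 2.63, so genotype and sex cannot be told apart. Hybridization controls of WT replicate 1 were 1.91 times those of WT replicate 2, and those of the other arrays lay between 0.969 and 1.003 times. The 3' to 5' signal of Gapdh and Actb, a sign of RNA quality, did not part the groups (differences of 0.004 and 0.008 log2 units, exact permutation p = 0.90 and 1.0). All 10 skeletal muscle markers were bright, with a summed level of 73040 to 119500 in WT and 73960 to 78170 in KO. On average 2 of them were higher and 8 lower, all with overlap, and 7 were higher without WT replicate 1. Satellite cell markers were higher on average in 5 of 5 (median fold 1.05), but only 2 averaged at least 16. Myf5, 1 of the dim ones (mean 11.85), had all KO-labelled arrays above WT, as had 4.51% of all genes. Of 7 cardiac markers 5 averaged below 16, and 3 were higher and 4 lower on average. Sln, a brighter marker of that list, read 25.9, 28.8 and 11.8 in WT and 35.9, 757.9 and 54.8 in KO, without overlap. Its peak lay in KO replicate 2, as for Myh7. Ryr2, the other marker of that list to average at least 16, was 0.963-fold and overlapped. Fibroblast markers summed to 7377 to 12870 in WT and 3610 to 7623 in KO, with 5 of 6 lower on average and 2 without overlap. Adipocyte markers summed to 2992 to 5852 and 2304 to 4075, with 5 of 5 lower and 2 without overlap (Retn and Lep, of which Lep averaged 8.6). Smooth muscle markers summed to 787.6 to 1150 and 278.5 to 547.8, which was carried by Acta2 and Smtn, both without overlap, while Tagln was 1.22-fold and Myh11 0.998-fold in KO and Cnn1 averaged below 16. Of all genes 8.34% had all KO-labelled arrays below WT. The highest WT sum of fibroblast, adipocyte and smooth muscle markers was in each case that of WT replicate 1. Scaled to hybridization controls, 2 fibroblast markers were higher and 4 lower, and 2 were higher and 3 lower in both the adipocyte and smooth muscle lists. The part of these cell types in the TRIM ligase values was not tested. In bulk muscle, fewer cells of a type and less RNA per cell cannot be told apart.

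Under 15 other settings the Trim63 change stayed between 1.32 and 3.17 log2 units and above 0, with limma adjusted p-values of 0.121 to 0.851. Filtering, the variance model, a replicate block and averaged probe sets could alter only the p-value, and left the change at 2.253.

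**Figure D5:**
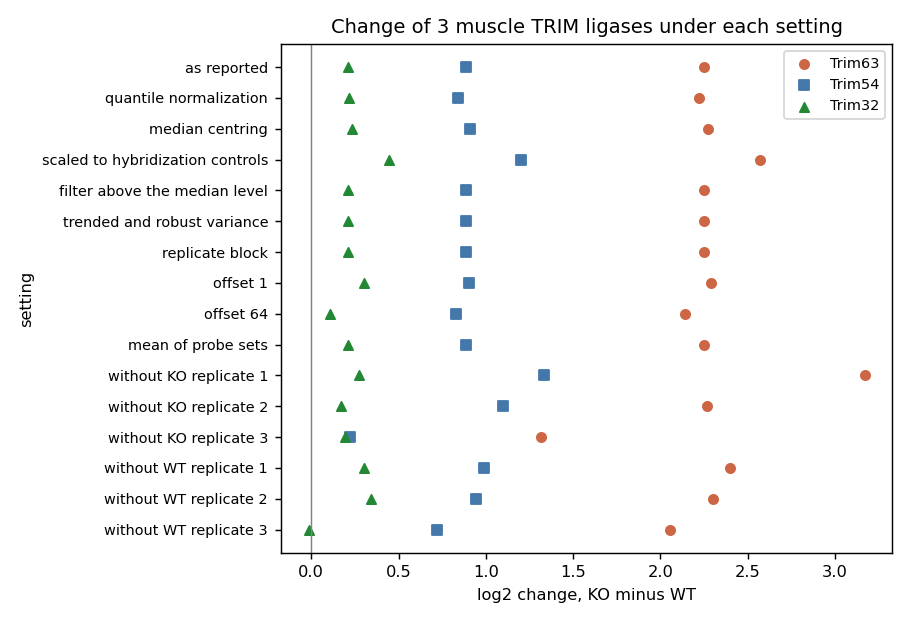
Log2 change (x axis, KO minus WT) of Trim63, Trim54 and Trim32 as reported and under each of 15 other settings (rows). Leaving out KO replicate 3 brings Trim63 from 2.25 to 1.32 and Trim54 from 0.89 to 0.22, and Trim32 crosses 0 without WT replicate 3.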

How the data were processed

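The authors deposited 1 linear intensity per probe set and array for 6 arrays. Extraction with TriPure and biotin labelling followed standard protocols, per the labels' protocols. Not given in the sources used here were the summarization software, the scaling and the background correction. Array medians (10.8 to 15) differ. Of 45101 probe sets, 64 controls were left out. Symbols came from the platform annotation (1 symbol for 34945 probe sets, several for 932, none listed for 9160), updated through RefSeq for 34741. Intensities were taken as log2(value + 16) without further normalization and tested with limma 3.58.1 in R 4.3.3 (lmFit, eBayes, two-sided, Benjamini-Hochberg over 45037 probe sets, threshold 0.05). The code was tested on simulated data. Each listed gene was represented by its brightest probe set. Intervals, at the 95% level, and SEs are those of limma's fit, and the number of arrays limits precision. Named genes were all members, up to 6 per list with the lowest p, a fixed set, and the 5 genes most like Trim63. A few further genes of the lists, and cell type markers, were named after seeing the data. Trim54 took the place of Trim55 for likeness. The members, lists and motifs were chosen with earlier results of these data known. Alternatives covered normalization, filtering, variance model, offsets, a replicate block, averaged probe sets and each array left out; scaling to hybridization controls was added after seeing the data. There were 0 unused sample columns.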

Additional observations from a re-analysis of the deposited data

How the results depend on the processing

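No member probe set and no gene of the 4 lists passed under the settings run. Trim63 and Trim54 kept their direction in all 15 alternatives. The filter, the variance model, the replicate block and averaged probe sets cannot move these estimates, so they do not test the direction. Trim32 turned to -0.015 without WT replicate 3 (range over the arrays left out -0.015 to 0.343), and Trim72 to 0.002 when scaled to hybridization controls, the causes of which were not tested. The count over all probe sets, 4 as reported, was 9 with quantile normalization, 11 with median centring, 79 with the filter above the median level, 15 with a trended and robust variance, 1 with an offset of 64, and 1 to 6 with each array left out. With the replicate number as a block it was 0, with adjusted p = 0.664 for Trim63. Same-numbered arrays did not deviate together over all probe sets (correlations of -0.057, 0.026 and -0.057). Most probe sets read below the offset (51.7% to 60.3% per array), so these correlations cannot exclude that the numbers pair the mice. Low signal limits Trim72, and 3 arrays per group limit the rest.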
